A study of Homo sapiens with 8 samples.

Results

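The eIF3 genes encode the subunits of eukaryotic translation initiation factor 3, and 10 of them are described here: EIF3A, EIF3B, EIF3C, EIF3D, EIF3E, EIF3F, EIF3G, EIF3H, EIF3L and EIF3M. They were picked by gene name from 33711 genes, with no threshold on a measured value but with earlier results of these data known. They hold 121 of the 134605 transcripts with a value. HCT116, a human colorectal cancer cell line, received, with the jetPRIME reagent, either an siRNA that targets YTHDF3 (a cytoplasmic protein that binds N6-methyladenosine, m6A, on transcripts) or the negative control siRNA, called NC. The series compared transcript levels and m6A between these conditions, and the expression values came from 2 si-YTHDF3 input libraries and 2 NC input libraries, taken before the m6A precipitation and with no antibody. No other agent or allele separates the groups in the labels, and all libraries come from the same cell line. The labels number the si-YTHDF3 libraries 1 and 2 and give each a code of its own. The paper lists 2 siRNAs against YTHDF3, named and numbered as in the library titles, so the 2 libraries may differ in the siRNA used. Nothing says that the libraries of a group came from separate cultures. The spread behind each p-value is therefore that of these libraries alone. It may be technical or, for si-YTHDF3, include a difference between siRNAs.

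eIF3 is the largest of the initiation factors. It binds the small ribosomal subunit, helps to recruit the initiator tRNA complex and the mRNA, and keeps the ribosomal subunits apart until a start codon has been found. Its core is built from subunits with a PCI domain (A, C, E, K, L and M) and subunits with an MPN domain (F and H), to which the module of B, G and I and the cap-binding subunit D attach. eIF3 has also been described as a factor that binds m6A in the 5′ part of mRNAs, and YTHDF3 as a reader that works with translation factors. These statements are background and were not measured here.

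Levels are in FPKM (fragments per kilobase of transcript after correction for the size of the library), added up over all transcripts of a gene. YTHDF3 itself stood in the si-YTHDF3 libraries at 2.53 and 3.25 FPKM, against 25.9 and 11.96 FPKM in the NC libraries, so the groups did not overlap, although the NC libraries differed from each other. Its log2 fold change was -2.27 (SE 0.35), with a limma adjusted p of 0.135. FPKM summed to between 371121 and 383303 per library, 14357 to 14483 genes reached 1 FPKM, and the number of reads is unknown. Of 7 colorectal epithelial markers, 5 (KRT8, KRT18, KRT19, EPCAM and CDH1) were at 1 FPKM or more in every library, while CDH17 and VIL1 were below it. Of 5 leukocyte markers, 3 had an entry. They summed in the si-YTHDF3 libraries to 0.126 and 0.163 FPKM, against 0.144 and 0.0809 FPKM in the NC libraries. Of 6 fibroblast markers, 3 had an entry, and COL3A1 and PDGFRB were below 1 FPKM. COL1A1 had 11.9 and 13.7 FPKM in the si-YTHDF3 libraries, against 15.8 and 12.0 FPKM in the NC libraries. Of 3 endothelial markers, 2 had an entry. Their sum was 0.251 and 0.265 FPKM in the si-YTHDF3 libraries, against 0.259 and 0.231 FPKM in the NC libraries.

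All 10 eIF3 genes were expressed far above the filter of 1 FPKM on the mean, and all were tested. None passed the adjusted threshold of 0.05 in limma, against 4 of 14457 genes tested (0.0277%), and the lowest adjusted p among the 10 was 0.233. At an unadjusted p under 0.05, 2 were higher in the si-YTHDF3 libraries (EIF3B and EIF3F), against 8.29% of all genes, and 0 were lower, against 6.53%. Both si-YTHDF3 libraries were above both NC libraries for 3 genes (EIF3B, EIF3F and EIF3G), against 25.3% of all genes, and below both for 2 (EIF3E and EIF3M), against 23.7%. With 10 genes, 3 and 2 whose groups lie apart are close to these shares, and 2 at an unadjusted p are too few to set above theirs. Fold changes pointed up for 6 and down for 4, with a median log2 fold change of 0.05, beside 0.01 over all genes. The median of the 10 genes was 0.00035 without si-YTHDF3 library 2. Lower levels of an RNA in bulk samples such as these can come from fewer cells of a kind or from less RNA per cell, which cannot be told apart.

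**Figure D1:**
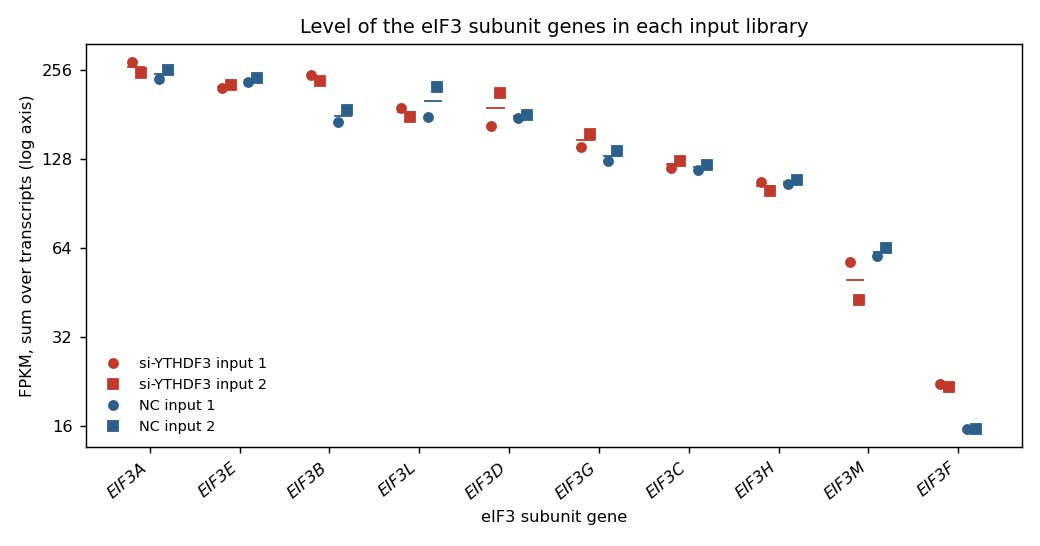
Each point is the FPKM of 1 gene in 1 input library on a log axis, with si-YTHDF3 in red left of NC in blue, circles for library 1, squares for library 2 and a short line at the mean of each group. EIF3B, EIF3F and EIF3G have both red points above both blue ones, and EIF3E and EIF3M have both below. EIF3F sits lowest of the 10 genes at 15.69 to 22.3 FPKM.

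FPKM are scaled by transcript length, so levels can be set beside each other across genes, but the order depends on how reads were divided. EIF3C and its near-identical copy EIF3CL together had 237.0 to 255.7 FPKM, within the range of the highest genes. EIF3F and its pseudogene EIF3FP3 together had 24.8 to 41.2 FPKM, still below EIF3M. The order below is that of the values listed for each gene alone, and the division of reads was not tested. EIF3A was the highest on average and EIF3F the lowest, 255.4 against 18.9 FPKM over all 4 libraries. EIF3A, EIF3E, EIF3B, EIF3L and EIF3D formed a top group in which each neighbour in the order overlapped the next. Below them EIF3D, EIF3G, EIF3C, EIF3H, EIF3M and EIF3F were in a fixed order, each above the next in every library. By the group means EIF3B was above EIF3E, EIF3L and EIF3D in the si-YTHDF3 libraries and below EIF3E and EIF3L in the NC libraries. It made up 16.0% and 15.1% of the summed FPKM of the 10 genes in the si-YTHDF3 libraries, against 12.0% and 12.2% in the NC libraries.

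The summed FPKM of the 10 genes was 1548 and 1557 in the si-YTHDF3 libraries, against 1425 and 1542 in the NC libraries, a ratio of 1.05. The groups did not overlap, but the ratio was 1.01 without NC library 1, and an exact two-sided permutation test over the 4 libraries gave p = 0.333, the smallest it can give. After scaling each library to the same summed FPKM the groups overlapped (ratio 1.02, exact permutation p = 1).

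The module of EIF3B, EIF3G and EIF3I binds near the mRNA entry side of the small subunit. EIF3B, its scaffold, with an RNA recognition motif and a propeller-shaped domain, lies on chromosome 7 (GRCh38, chr7:2354086-2380745, plus strand). It had 247.4 and 235.8 FPKM in the si-YTHDF3 libraries, against 171.1 and 188.6 FPKM in the NC libraries. The groups did not overlap, and the distance between them was larger than the spread within either. The fold was 1.34, with a log2 fold change of 0.42 (SE 0.12, 95% interval 0.14 to 0.71), an unadjusted p of 0.0116 and a limma adjusted p of 0.235. The unadjusted limma p was 0.0581 without si-YTHDF3 library 1 and 0.0814 without NC library 1. EIF3B overlaps SNX8 on the opposite strand (mean 9.82 FPKM), and whether the authors' quantification used strand is not given in the sources used here. EIF3A (NANOS1), EIF3G (P2RY11), EIF3H (UTP23) and EIF3L (ANKRD54) likewise overlap a gene on the opposite strand, at means of 1.20 to 13.3 FPKM.

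EIF3G, an RNA-binding subunit that also contacts other initiation factors, had 140.9 and 156.5 FPKM in the si-YTHDF3 libraries, against 126.5 and 136.7 FPKM in the NC libraries. The groups did not overlap, but the lowest si-YTHDF3 value was close to the highest NC value. Its log2 fold change was 0.17 (95% interval -0.13 to 0.48, limma adjusted p = 0.527). EIF3I, the WD-repeat subunit of the module, is not among the 10 genes and had 138.7 and 151.5 FPKM in the si-YTHDF3 libraries, against 126.7 and 122.7 FPKM in the NC libraries (log2 fold change 0.22, limma adjusted p = 0.430). EIF3B, EIF3G and EIF3I each had both si-YTHDF3 libraries above both NC libraries, as did 25.3% of all genes. None of them passed the adjusted test, and the module was not tested as a set.

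The MPN subunits EIF3F and EIF3H sit in the core and are related to proteins of the proteasome lid and the COP9 signalosome. EIF3F (chr11:7970251-8001862, plus strand) had 22.3 and 21.8 FPKM in the si-YTHDF3 libraries, against 15.73 and 15.69 FPKM in the NC libraries. The libraries of each group lay very close together and the groups were apart. The fold was 1.40, with a log2 fold change of 0.46 (SE 0.12, 95% interval 0.15 to 0.77), an unadjusted p of 0.0109 and a limma adjusted p of 0.233. Summed over protein-coding transcripts only, the log2 fold change of EIF3F was -0.10 (limma adjusted p = 0.812), so the direction of the gene's value turned with the transcripts counted.

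EIF3F has a near copy on chromosome 2, the processed pseudogene EIF3FP3, and reads could be divided between them. EIF3FP3 reached 18.98 and 17.4 FPKM in the si-YTHDF3 libraries, against 9.09 and 10.2 FPKM in the NC libraries, with a log2 fold change of 0.85 (SE 0.14, unadjusted p = 0.00105, limma adjusted p = 0.146). The copy held 46.0% and 44.4% of the sum of both in the si-YTHDF3 libraries, against 36.6% and 39.3% in the NC libraries. EIF3F and EIF3FP3 together had 41.2 and 39.2 FPKM in the si-YTHDF3 libraries, against 24.8 and 25.8 FPKM in the NC libraries (log2 fold change 0.65, limma adjusted p = 0.179). The level of EIF3F alone is therefore uncertain, and how the quantification treated such reads was not tested. EIF3H, the other MPN subunit, had 107.4 and 100.1 FPKM in the si-YTHDF3 libraries, against 105.4 and 109.2 FPKM in the NC libraries, and the groups overlapped (log2 fold change -0.05, 95% interval -0.34 to 0.24).

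The PCI subunits form the arc of the core. EIF3A, the largest subunit, which spans from the core to the entry side, had 272.7 and 251.3 FPKM in the si-YTHDF3 libraries, against 239.7 and 257.8 FPKM in the NC libraries. EIF3C, which contacts the scanning factors, had 120.2 and 126.0 FPKM in the si-YTHDF3 libraries, against 118.1 and 122.4 FPKM in the NC libraries. Both overlapped between groups, with log2 fold changes of 0.07 (95% interval -0.21 to 0.36) for EIF3A and 0.03 (-0.25 to 0.31) for EIF3C. EIF3C has a near-identical copy, EIF3CL, which had 133.2 and 129.7 FPKM in the si-YTHDF3 libraries, against 118.9 and 127.1 FPKM in the NC libraries. Counted together, EIF3C and EIF3CL had 253.4 and 255.7 FPKM in the si-YTHDF3 libraries, against 237.0 and 249.5 FPKM in the NC libraries (log2 fold change 0.07, limma adjusted p = 0.793).

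EIF3E, also known as INT6, had 223.3 and 228.4 FPKM in the si-YTHDF3 libraries, against 233.2 and 242.2 FPKM in the NC libraries. The si-YTHDF3 libraries were below the NC libraries by a small distance (log2 fold change -0.07, 95% interval -0.34 to 0.19, limma adjusted p = 0.767). EIF3L had 190.9 and 178.7 FPKM in the si-YTHDF3 libraries, against 177.9 and 224.4 FPKM in the NC libraries. The groups overlapped because the NC libraries were far apart, and the log2 fold change was -0.11 (95% interval -0.48 to 0.26). EIF3K, the PCI subunit that pairs with EIF3L, had 95.1 and 112.7 FPKM in the si-YTHDF3 libraries, against 96.5 and 90.4 FPKM in the NC libraries (log2 fold change 0.15, limma adjusted p = 0.629).

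EIF3M (chr11:32583798-32606262, plus strand), the PCI subunit that pairs with EIF3F in the core, had the lowest fold of the 10 genes. It had 57.6 and 42.9 FPKM in the si-YTHDF3 libraries, against 60.5 and 64.0 FPKM in the NC libraries. The groups did not overlap, but si-YTHDF3 library 1 was nearer to the NC libraries than to si-YTHDF3 library 2. The log2 fold change was -0.32 (SE 0.17, 95% interval -0.75 to 0.11, unadjusted p = 0.117, limma adjusted p = 0.430). It was -0.11 without si-YTHDF3 library 2 and -0.53 without si-YTHDF3 library 1.

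EIF3D (chr22:36510850-36529436, minus strand), which can bind the mRNA cap directly, had 165.7 and 215.1 FPKM in the si-YTHDF3 libraries, against 177.2 and 181.4 FPKM in the NC libraries. Both NC values lay between the 2 si-YTHDF3 values, and the log2 fold change was 0.07 (95% interval -0.31 to 0.46). Among the rest of the complex, EIF3J, a loosely attached subunit that sits near the decoding centre, had the lowest fold. EIF3J had 73.95 and 57.3 FPKM in the si-YTHDF3 libraries, against 97.8 and 125.1 FPKM in the NC libraries, with no overlap (log2 fold change -0.76, SE 0.19, unadjusted p = 0.00811, limma adjusted p = 0.225).

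**Figure D2:**
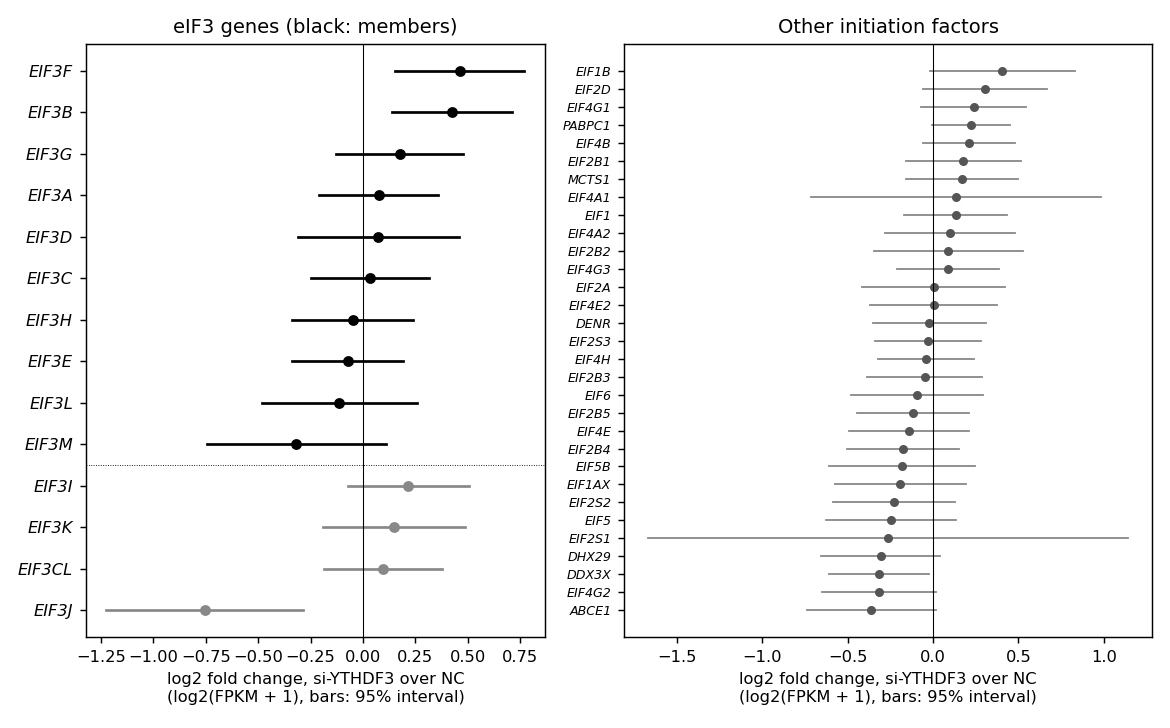
Points are log2 fold changes, si-YTHDF3 over NC, and bars are 95% intervals from limma, with the 10 eIF3 genes in black above the rest of the complex in grey on the left and 31 other initiation factors on the right. The intervals of EIF3F, EIF3B and EIF3J leave out 0, at log2 fold changes of 0.46, 0.42 and -0.76, and those of the other eIF3 genes include it.

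The start of the mRNA is shown for the members with an entry in the RefSeq promoter table, because mRNAs of many translation factors begin with a C and a run of pyrimidines (a 5′ terminal oligopyrimidine, TOP, start) that makes their translation depend on mTOR signalling. Of the 10 genes, 5 had an entry (EIF3B, EIF3C, EIF3D, EIF3F and EIF3M). The 30 bases run 5′ to 3′ on the gene's strand, from 10 before the RefSeq start to 20 from it on, in build GRCh38.p14. Capitals mark a run that opens with C at the start itself and goes on with at least 4 bases that are C or T. The windows are chr22:36529147-36529176 (minus strand) for EIF3D, chr11:7987327-7987356 (plus) for EIF3F, chr11:32583821-32583850 (plus) for EIF3M, chr7:2354817-2354846 (plus) for EIF3B and chr16:28688548-28688577 (plus) for EIF3C.
EIF3D: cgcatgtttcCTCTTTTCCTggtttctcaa
EIF3F: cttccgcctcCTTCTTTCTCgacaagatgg
EIF3M: gcccagttccCTTTTCCggtcggcgtggtc
EIF3B: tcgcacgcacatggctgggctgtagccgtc
EIF3C: tcccacccccgtggcaggcagccctgcacc

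The run was 10 bases long in EIF3D and EIF3F and 7 in EIF3M, while EIF3B and EIF3C had none at this position. By the same letters, 1429 of 35116 RefSeq promoters (4.07%) have such a start. The match describes the letters of 1 annotated start and not a measured start or its use. Transcripts that begin within 50 bases of the RefSeq start held 90.9% of the FPKM of EIF3M, 48.0% of EIF3F, 24.1% of EIF3D, 22.6% of EIF3B and 9.78% of EIF3C. Summed over all transcripts of each gene, the 3 genes with a run had log2 fold changes of 0.07 (EIF3D), 0.46 (EIF3F) and -0.32 (EIF3M). The limma intervals of EIF3D (-0.31 to 0.46) and EIF3M (-0.75 to 0.11) spanned both directions, so a shared direction could not be judged. These sums also include transcripts that begin elsewhere, which held most of the FPKM of EIF3D and EIF3F. Translation was not measured, and an effect of the start was not tested.

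The 121 transcripts were 54 protein-coding ones, 42 with a retained intron, 16 annotated as targets of nonsense-mediated decay and 9 processed ones, with 3 (EIF3A) to 18 (EIF3E) per gene. A mean of 1 FPKM was reached by 75, which were tested, and 46 stayed below it. None of the 75 passed the adjusted threshold in limma, where 0.0% of 38284 transcripts did, and the lowest adjusted p was 0.280. At an unadjusted p under 0.05, 8 of the 75 passed, against 7.21% of all transcripts tested. With a 2-fold change as well, 1 was higher in the si-YTHDF3 libraries, against 2.22% of all transcripts, and 2 were lower, against 1.89%. None of the 121 was listed at 0 in both libraries of 1 group while reaching 1 FPKM in each library of the opposite group, against 0.421% of the tested transcripts.

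The transcript higher by both criteria was the EIF3F retained-intron transcript ENST00000528653, which had 8.60 and 5.06 FPKM in the si-YTHDF3 libraries, against 0.747 and 1.16 FPKM in the NC libraries. Its log2 fold change was 1.97 (SE 0.32, unadjusted p = 0.00514, limma adjusted p = 0.348). The coding EIF3F transcript ENST00000309828 had 0.00472 and 4.06 FPKM in the si-YTHDF3 libraries, against 7.82 and 7.07 FPKM in the NC libraries. It passed neither threshold (log2 fold change -1.90, SE 0.89, unadjusted p = 0.107, limma adjusted p = 0.777). Retained-intron transcripts held 46.7% and 32.0% of the FPKM of EIF3F in the si-YTHDF3 libraries, against 11.3% and 13.7% in the NC libraries. The groups were apart for this share in the same direction in EIF3M and in the opposite direction in EIF3B and EIF3C. How often it lies apart over all genes was not computed. The leading EIF3F transcript, ENST00000533626, is 7540 bases long and begins upstream, at the first base of the gene's span. It had 10.3 and 10.0 FPKM in the si-YTHDF3 libraries, against 6.07 and 6.24 FPKM in the NC libraries (log2 fold change 0.64, unadjusted p = 0.0188, limma adjusted p = 0.544). Without it the log2 fold change of EIF3F was 0.28 (limma adjusted p = 0.364).

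Both transcripts lower by both criteria belong to EIF3C. The coding transcript ENST00000331666 had 2.47 and 4.74 FPKM in the si-YTHDF3 libraries, against 14.6 and 12.98 FPKM in the NC libraries (log2 fold change -1.73, limma adjusted p = 0.396). The retained-intron transcript ENST00000565932 had 2.54 and 3.78 FPKM in the si-YTHDF3 libraries, against 6.62 and 9.87 FPKM in the NC libraries (log2 fold change -1.15, limma adjusted p = 0.567). Other EIF3C transcripts differed as much between libraries of 1 group. ENST00000566501 had 36.5 FPKM in si-YTHDF3 library 1 and was listed at 0 in si-YTHDF3 library 2, against a listed 0 in NC library 1 and 11.1 FPKM in NC library 2, while the gene's sum stayed between 118.1 and 126.0 FPKM in all 4.

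EIF3M had the clearest difference between groups in its leading transcript, the coding ENST00000524896. It had 15.7 and 15.1 FPKM in the si-YTHDF3 libraries, against 31.4 and 30.8 FPKM in the NC libraries. The libraries of a group agree closely here, and the log2 fold change was -0.97 (SE 0.14, unadjusted p = 0.00311). The limma adjusted p was 0.280, the lowest of the eIF3 transcripts. On log2(FPKM + 1) this transcript was just short of 2-fold, while its fold of mean FPKM was 0.496. Its share of the gene was 27.2% and 35.2% in the si-YTHDF3 libraries, against 51.9% and 48.0% in the NC libraries (exact permutation p = 0.333, the smallest possible). Summed over coding transcripts only, the log2 fold change of EIF3M was -0.58 (unadjusted p = 0.00511, limma adjusted p = 0.227). The EIF3M transcript ENST00000532444, annotated for nonsense-mediated decay, had 17.7 and 4.14 FPKM in the si-YTHDF3 libraries, against 2.54 and 6.37 FPKM in the NC libraries, so si-YTHDF3 library 1 stood apart from the other 3.

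The leading transcript of EIF3G, the coding ENST00000588709, had 72.3 and 78.0 FPKM in the si-YTHDF3 libraries, against 56.2 and 55.9 FPKM in the NC libraries (log2 fold change 0.42, unadjusted p = 0.0261, limma adjusted p = 0.595). Its share of the gene was 51.3% and 49.9% in the si-YTHDF3 libraries, against 44.4% and 40.9% in the NC libraries. EIF3F, EIF3G and EIF3M were the 3 of 10 genes whose leading share did not overlap between groups, which is near the background, 34.8% of 12036 tested genes with at least 2 transcripts. The leading share of EIF3F was 46.3% and 46.1% in the si-YTHDF3 libraries, against 38.6% and 39.7% in the NC libraries. In EIF3B, the coding transcripts ENST00000431643 and ENST00000413917 passed the unadjusted threshold. ENST00000431643 had 69.8 and 57.4 FPKM in the si-YTHDF3 libraries, against 38.5 and 47.0 FPKM in the NC libraries. ENST00000413917 had 40.8 and 40.8 FPKM in the si-YTHDF3 libraries, against 26.7 and 31.8 FPKM in the NC libraries.

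The other leading transcripts varied within groups as much as between them, or hardly at all. In EIF3A (ENST00000369144) and EIF3H (ENST00000521861) 1 coding transcript held nearly the whole gene, from 98.7% to 99.7% and from 85.4% to 95.9%. EIF3L (ENST00000406934) gave its leading transcript 72.8% and 67.7% in the si-YTHDF3 libraries, against 73.6% and 61.3% in the NC libraries. The leading share of EIF3B (ENST00000397011) was 19.1% and 30.6% in the si-YTHDF3 libraries, against 35.4% and 24.9% in the NC libraries. That of EIF3C (ENST00000566866) was 27.0% and 51.8% in the si-YTHDF3 libraries, against 45.6% and 20.7% in the NC libraries. In EIF3D (ENST00000405442) it was 41.4% and 59.9% in the si-YTHDF3 libraries, against 64.4% and 49.3% in the NC libraries.

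EIF3E is the only one of the 10 genes whose leading transcript, ENST00000521614, is annotated with a retained intron. It had 137.2 and 72.0 FPKM in the si-YTHDF3 libraries, against 131.7 and 162.8 FPKM in the NC libraries. The coding transcript ENST00000519030 had 58.2 and 121.0 FPKM in the si-YTHDF3 libraries, against 73.9 and 45.0 FPKM in the NC libraries. High values of the one went with low values of the other in all 4 libraries, and the sum of the gene varied little. How reads were divided between them was not tested, so the part of EIF3E that keeps an intron is uncertain. Counting only coding transcripts gave EIF3E a log2 fold change of 0.41 (limma adjusted p = 0.620), against -0.07 over all transcripts. The transcript with the highest FPKM was the same in all 4 libraries for 5 genes (EIF3A, EIF3D, EIF3G, EIF3H and EIF3L) and differed between libraries for the other 5.

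**Figure D3:**
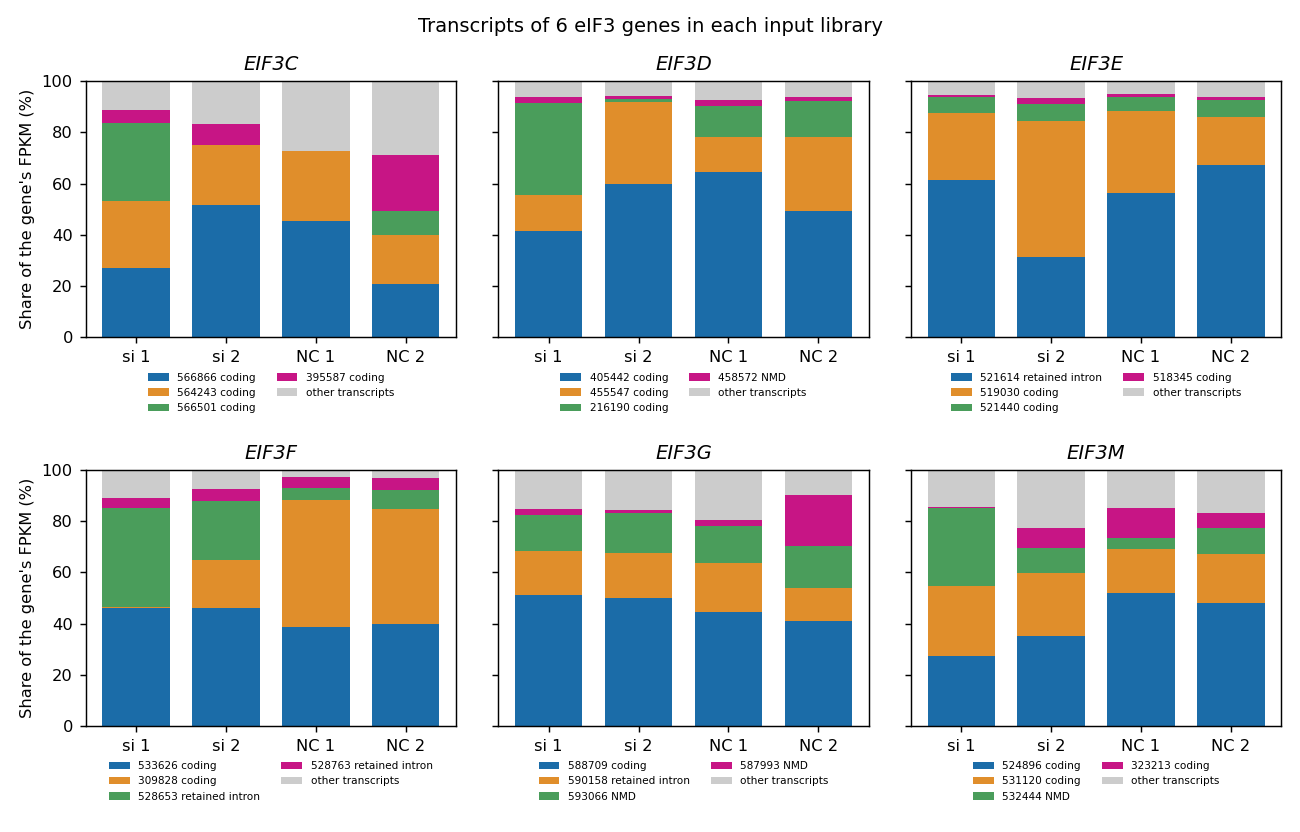
Stacked bars give the share of a gene's FPKM in its 4 transcripts with the highest mean (last 6 digits of the Ensembl name; NMD, nonsense-mediated decay) and in all others in grey, for each si-YTHDF3 (si) and NC library. In EIF3M the leading transcript holds 27.2% and 35.2% in si-YTHDF3 against 51.9% and 48.0% in NC, while in EIF3C, EIF3D and EIF3E the libraries of a group differ from each other.

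Set beside the other initiation factors, the eIF3 genes were not tested as a group. Of 31 such factors 14 had a higher and 17 a lower mean in the si-YTHDF3 libraries, with a median log2 fold change of -0.03, and 0 passed the adjusted threshold in limma. At an unadjusted p under 0.05, 1 was lower: DDX3X, an RNA helicase, which had 63.4 and 59.2 FPKM in the si-YTHDF3 libraries, against 77.6 and 75.5 FPKM in the NC libraries (log2 fold change -0.32, unadjusted p = 0.0395). The lowest log2 fold changes were -0.36 for ABCE1, the ribosome recycling factor, and -0.32 for EIF4G2, a relative of the cap-complex scaffold. The highest were 0.41 for EIF1B, a start-codon selection factor, and 0.30 for EIF2D, which can deliver tRNA to the ribosome. Within the 4 other eIF3 genes (EIF3I, EIF3J, EIF3K and EIF3CL) 3 pointed up and 1 down.

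**Figure D4:**
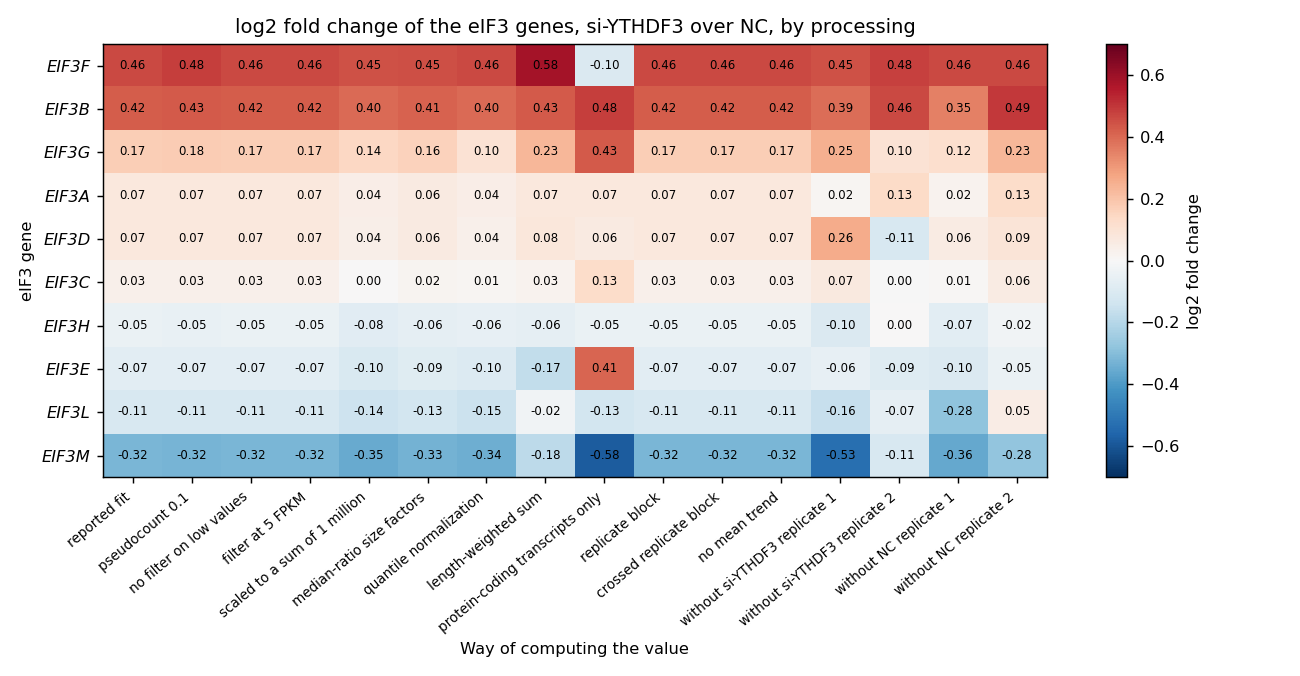
Each cell is the log2 fold change of 1 eIF3 gene, si-YTHDF3 over NC, under 1 way of computing it, with red for higher and blue for lower in si-YTHDF3. EIF3B, EIF3G, EIF3A and EIF3M keep 1 colour across all columns, whereas EIF3F (-0.10) and EIF3E (0.41) change sign when only protein-coding transcripts are counted.

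The m6A peak list used here held 99 peaks, all on chromosome 1. None of the 10 eIF3 genes lies on that chromosome, so m6A in their mRNAs was not analysed here.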

How the data were processed

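Input RNA of HCT116 cells was sequenced by the authors on an Illumina NovaSeq instrument. For these 4 libraries the authors deposited FPKM, 1 value per Ensembl transcript, and the submitters' processing notes name GRCh38. Which aligner and quantifier made them is not given in the sources used here. FPKM hide the read depth, so values carry no counting interval. The deposited fold, p and q columns and the peak list's enrichment and change columns hold the authors' own comparison and were not used.

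FPKM were summed per gene. A gene or transcript averaging 1 FPKM or more was tested on log2(FPKM + 1), which understates changes of low genes, with limma 3.58.1 under R 4.3.3 (lmFit, then eBayes using a mean trend) and Benjamini-Hochberg adjustment over all tested features at 0.05. The test was tried on simulated data first. Single values per library used exact two-sided permutation tests. Sequences came from RefSeq (GRCh38.p14). The figures were drawn with matplotlib 3.10.9.

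The members and lists were chosen with earlier results of these data known. By rule the text names all 10 members, YTHDF3, the rest of the complex, other initiation factors at an unadjusted p under 0.05 or with the 2 largest changes in each direction, each leading transcript, and transcripts at an unadjusted p under 0.05 and 2-fold. Other transcripts were named after their values were seen. Alternatives covered the pseudocount, the filter, scaling, the gene sum, the replicate block, the mean trend and leaving out each library.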

Additional observations from a re-analysis of the deposited data

How the results depend on the processing

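None of the 10 eIF3 genes passed the adjusted threshold in limma under any alternative run. The lowest adjusted p was 0.111, for EIF3F with transcripts weighted by length. EIF3A, EIF3B, EIF3G and EIF3M kept their direction throughout, and 6 of 153 pairs of gene and alternative turned it. With protein-coding transcripts only, EIF3E was at 0.41 and EIF3F at -0.10. With 1 library left out, when the lone library is assumed to vary like the other group, the log2 fold change ran from -0.11 to 0.26 for EIF3D, from -0.099 to 0.0011 for EIF3H, from -0.00043 to 0.067 for EIF3C and from -0.28 to 0.054 for EIF3L. The count at an unadjusted p under 0.05 was 3 with coding transcripts only (EIF3B, EIF3G and EIF3M, without EIF3F). It ran from 1 to 2 with 1 library left out, with 1 (EIF3F) without NC library 1, and without si-YTHDF3 library 1 the pair was EIF3F and EIF3M. The transcripts at an unadjusted p and 2-fold, 3 with all libraries, ran from 4 to 9, with 4 and 8 without si-YTHDF3 libraries 1 and 2 and 9 and 5 without NC libraries 1 and 2. The leading share moved by more than the spread in 4 of 19 alternatives: weighted by length, the difference of si-YTHDF3 minus NC was 7.57 percentage points for EIF3F and -14.2 for EIF3M, and among coding transcripts only it was 36.2 for EIF3F and -0.803 for EIF3G. With EIF3FP3 added, EIF3F was at 0.65. This alternative was chosen after seeing the data, as were the sum of EIF3C and EIF3CL and the value of EIF3F without ENST00000533626.

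Same-numbered libraries of the groups deviated from their group means with a correlation of -0.11 over 14457 genes, and crossed numbers with 0.11. These are 1 value with opposite signs, so they cannot show whether same-numbered libraries were prepared together. With the replicate block, 0 eIF3 genes passed (lowest adjusted p 0.367) and 2 were at an unadjusted p under 0.05. Over all genes the block gave 132 calls, against 4 without it. With crossed numbers, chosen after seeing the data, 0 of all genes and 0 of the eIF3 genes passed. Calls over all genes were 0 without a filter, 15 with a filter at 5 FPKM, 30 with length weights, 0 with coding transcripts only and 0 to 67 with 1 library left out. With 2 libraries a group, the exact test cannot go below 0.333.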
